A study of Mus musculus with 2 samples.

Results

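Of the 22605 genes whose coding spans were listed in the deposited DNase I table, 38 encode proteins that carry out or control mitosis, and these are described here. They were picked by gene symbol, and all 38 were found. Each gene was represented by the transcript whose coding span, from start to stop codon, touched the most windows of 700 bp. M1 cells are a line of mouse myeloid progenitors derived from a leukemia, which mature toward macrophages under the cytokine interleukin-6 (IL-6). For DHS-seq, nuclei are cut lightly with DNase I, which reaches open chromatin first, and the small fragments released are sequenced. The untreated group (M1) is 1 library of the line in plain medium, and the treated group (M1+IL-6) is 1 library of the same line grown with IL-6, for which the labels give 4 to 5 days. No allele or transgene is named in the labels, both groups come from this 1 line, and with 1 library per group no difference below has a replicate check.

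Dividing cells make most of the proteins of mitosis only late in the cell cycle. Cyclins switch on the kinase Cdk1 and so start mitosis, kinetochores hold the chromosomes on spindle fibres, the spindle checkpoint delays chromosome separation until every chromosome is attached, and cytokinesis then parts the daughter cells. The promoters of many of these genes carry a short element called the cell cycle genes homology region (CHR), which the MuvB complexes (DREAM in resting cells, B-Myb-MuvB in dividing cells) bind, often downstream of CCAAT boxes bound by the factor NF-Y. IL-6 is known to bring M1 cells to growth arrest as they mature. DNase I signal measures how open a stretch of chromatin is and not how much of a transcript or protein is made, and in bulk nuclei fewer cells open at a site and less cutting per cell cannot be told apart.

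The signal is given in reads per window. A read counted as 1.0 in M1 and as 1.03816 in M1+IL-6, and the IL-6 means below carry this scaling, while reads are given unscaled. On the autosomes and the X chromosome, coding spans without overlap took 8973250 reads of the M1 library and 8432571 of the M1+IL-6 library, or 7.58 and 7.12 reads per window. Over all genes the median log2 ratio of M1+IL-6 to M1 was 0.03 among the 18472 genes that passed 21 reads in at least 1 library, the number above which the study called a site hypersensitive. Here that number was applied to the reads of a whole span, which a long span passes more easily than a single site. As a check of the cell type, 12 of 13 myeloid marker symbols were in the table, with a median M1 mean of 14.6. Of the 12, 8 held a window above 21 reads, against 35.0% of all genes. Such a window could not be shown for Mpo, Elane, Lyz2 and Kit, and the M1 mean of Kit was only 4.10. The 10 markers of other cell types had a median of 8.11, and 2 of them, Krt5 and Cdh5, held such a window. Ratios below have exact Clopper-Pearson 95% intervals, which hold counting error alone and set 1 library against the other rather than 1 condition against the other.

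The promoter sequences of 6 of the 38 genes are shown first, because their coding spans were lower after IL-6 and because they differ in the motifs they hold. These 6 are not the largest differences, since Prc1, Pttg1 and Ccnb2 had lower ratios than Spc25. The sequences run 5′ to 3′ on the strand of the gene, from 250 bases before to 50 bases after the RefSeq start of the GRCm38.p6 table. The positions are those of the identical sequence on NCBIM37, the build of the data. Capitals mark the CHR core (TTTGAA or TTCGAA, read on both strands, so that TTCAAA is also marked) and the CCAAT box (CCAAT, or ATTGG on the other strand).
Mad2l1, chr6:66484965-66485264, plus strand: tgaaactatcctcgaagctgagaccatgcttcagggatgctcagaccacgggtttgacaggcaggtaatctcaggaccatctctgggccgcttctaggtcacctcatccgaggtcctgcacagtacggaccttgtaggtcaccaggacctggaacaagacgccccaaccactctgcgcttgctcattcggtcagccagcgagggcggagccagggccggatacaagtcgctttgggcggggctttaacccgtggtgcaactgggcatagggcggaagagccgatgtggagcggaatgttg
Ccnb1, chr13:101556392-101556691, minus strand: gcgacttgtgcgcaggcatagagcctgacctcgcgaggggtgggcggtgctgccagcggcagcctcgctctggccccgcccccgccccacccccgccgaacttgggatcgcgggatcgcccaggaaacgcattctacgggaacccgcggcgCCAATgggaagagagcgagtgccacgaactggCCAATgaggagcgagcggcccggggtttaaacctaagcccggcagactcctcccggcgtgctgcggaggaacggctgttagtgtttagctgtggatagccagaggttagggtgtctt
Nek2, chr1:193645102-193645401, plus strand: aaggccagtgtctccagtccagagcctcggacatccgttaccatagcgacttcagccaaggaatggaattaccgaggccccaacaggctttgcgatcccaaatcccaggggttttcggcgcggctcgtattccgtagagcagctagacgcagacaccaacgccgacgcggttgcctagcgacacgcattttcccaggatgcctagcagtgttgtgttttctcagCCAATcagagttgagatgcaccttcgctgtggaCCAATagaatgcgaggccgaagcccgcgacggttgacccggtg
Cdc20, chr4:118109899-118110198, minus strand: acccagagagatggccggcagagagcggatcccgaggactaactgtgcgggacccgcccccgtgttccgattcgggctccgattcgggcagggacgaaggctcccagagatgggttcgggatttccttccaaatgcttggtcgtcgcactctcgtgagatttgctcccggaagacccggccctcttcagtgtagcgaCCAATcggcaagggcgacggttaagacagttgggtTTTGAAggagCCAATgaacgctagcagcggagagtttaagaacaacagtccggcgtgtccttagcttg
Aurka, chr2:172196021-172196320, minus strand: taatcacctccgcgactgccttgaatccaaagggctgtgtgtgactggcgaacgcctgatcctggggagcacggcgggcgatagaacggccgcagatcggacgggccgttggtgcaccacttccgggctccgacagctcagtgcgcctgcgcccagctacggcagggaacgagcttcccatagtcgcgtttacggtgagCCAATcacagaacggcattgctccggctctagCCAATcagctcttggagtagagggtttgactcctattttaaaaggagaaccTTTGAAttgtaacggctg
Spc25, chr2:69044221-69044520, minus strand: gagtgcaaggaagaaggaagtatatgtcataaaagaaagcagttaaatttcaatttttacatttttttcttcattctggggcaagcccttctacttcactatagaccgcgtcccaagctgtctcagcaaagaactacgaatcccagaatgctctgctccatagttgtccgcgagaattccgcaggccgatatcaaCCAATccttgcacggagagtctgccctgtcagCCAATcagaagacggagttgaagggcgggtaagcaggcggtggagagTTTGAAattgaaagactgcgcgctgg

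Of these, Cdc20, Aurka and Spc25 each held 1 CHR core and 2 CCAAT boxes. The core lay at position 33 after the start in Aurka, at 25 in Spc25 and at -18 in Cdc20. Ccnb1 and Nek2 held 2 CCAAT boxes each and no core, and Mad2l1 held neither. A promoter was listed for 31 of the 38 genes, and Ccna2, Tpx2, Smc4, Kif20a, Incenp, Aurkb and Cdc25c had no entry. The CHR core stood in 23 of the 31 promoters (74.2%), against 17.3% of the 14862 promoters of genes of the table and 19.4% of all 27025 promoters. Within 50 bases of the start it stood in 20 of the 31 (64.5%), against 4.44% of the promoters of genes of the table. A CCAAT box was found in 23 (74.2%, against 39.1%), and both motifs in 20 (64.5%, against 7.21%). The members' promoters had a median GC content of 58.7%, against 57.0% for the genes of the table, and 24 CpG dinucleotides against 14. Top2a, which untangles sister chromatids, held 6 CHR core matches and 6 CCAAT boxes, counting TTCGAA on both strands because it reads the same on each. The coding spans of the 23 genes with the core had a median log2 ratio of -0.41, and those of the 8 without it, Birc5, Ccnb1, Cenpe, Mad2l1, Ncaph, Nek2, Nuf2 and Pttg1, one of -0.86. These groups also differed in signal, with a median M1 mean of 11.2 with the core and 16.7 without. Of the 22 genes whose span held an annotated start site, 15 had the core, and of the 9 whose span held no such site, 8 did. Whether the core itself goes with the ratio was not tested. Among the 6 printed promoters, that of Mad2l1 lies outside the windows of its coding span, since its RefSeq start is 1 window away. Those of the other 5 lie at least in part inside. These matches describe the letters of the reference and say nothing of binding in M1 cells.

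**Figure D1:**
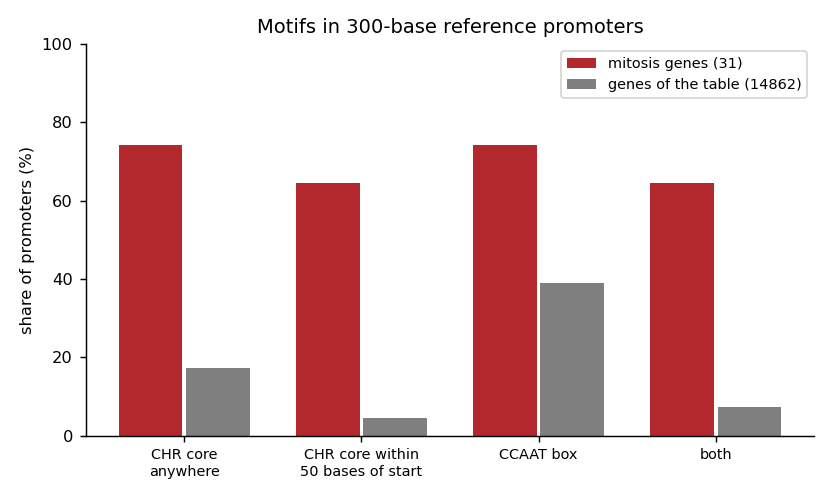
Share of 300-base reference promoters (vertical axis, percent) that hold a CHR core anywhere, a CHR core within 50 bases of the start, a CCAAT box, or both CHR core and CCAAT box. Red bars are the 31 mitosis genes with a promoter entry and gray bars the 14862 genes of the table; the CHR core near the start is in 64.5% of the first and 4.44% of the second.

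Signal over the coding spans of the 38 genes ran from 2.84 to 56.4 reads per window in M1, with a median of 11.0, and from 3.02 to 22.3 in M1+IL-6, with a median of 8.87. Together the spans held 14340 reads in M1 and 10530 in M1+IL-6. All 38 had more than 21 reads. The signal was lower after IL-6 in 25 genes and higher in 13, where 48.3% of all genes were lower. At least 2-fold lower were 6 genes (15.8%), against 13.4% of all genes, and 0 were at least 2-fold higher, against 1.71%. The interval of the ratio lay below 1 in 23 genes (34.4% of all genes) and above 1 in 5 (29.0% of all genes). Such intervals narrow with more reads, and the 38 spans had more reads than most. Their median M1 mean was 11.0 over a median of 33 windows, against 7.75 and 16 for all genes. How far read number accounts for the count of intervals was not tested. The median log2 ratio was -0.44 and the range was -1.69 to 0.42. The direction of the list depends on the scaling: it held with the scaling of the table, with no scaling, with the total and with the median over all genes, but a scaling by 420 short spans of strong signal adds 1.73 to every log2 ratio and puts all 38 genes above a ratio of 1. Across the 38 genes the log2 ratio was lower where the M1 mean was higher (Pearson's r -0.88, Spearman's rho -0.90, across genes and with the M1 value in both measures), and in the 18434 other genes with signal in M1 the same measures gave -0.75 and -0.70, as the plot of ratio against signal shows.

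**Figure D2:**
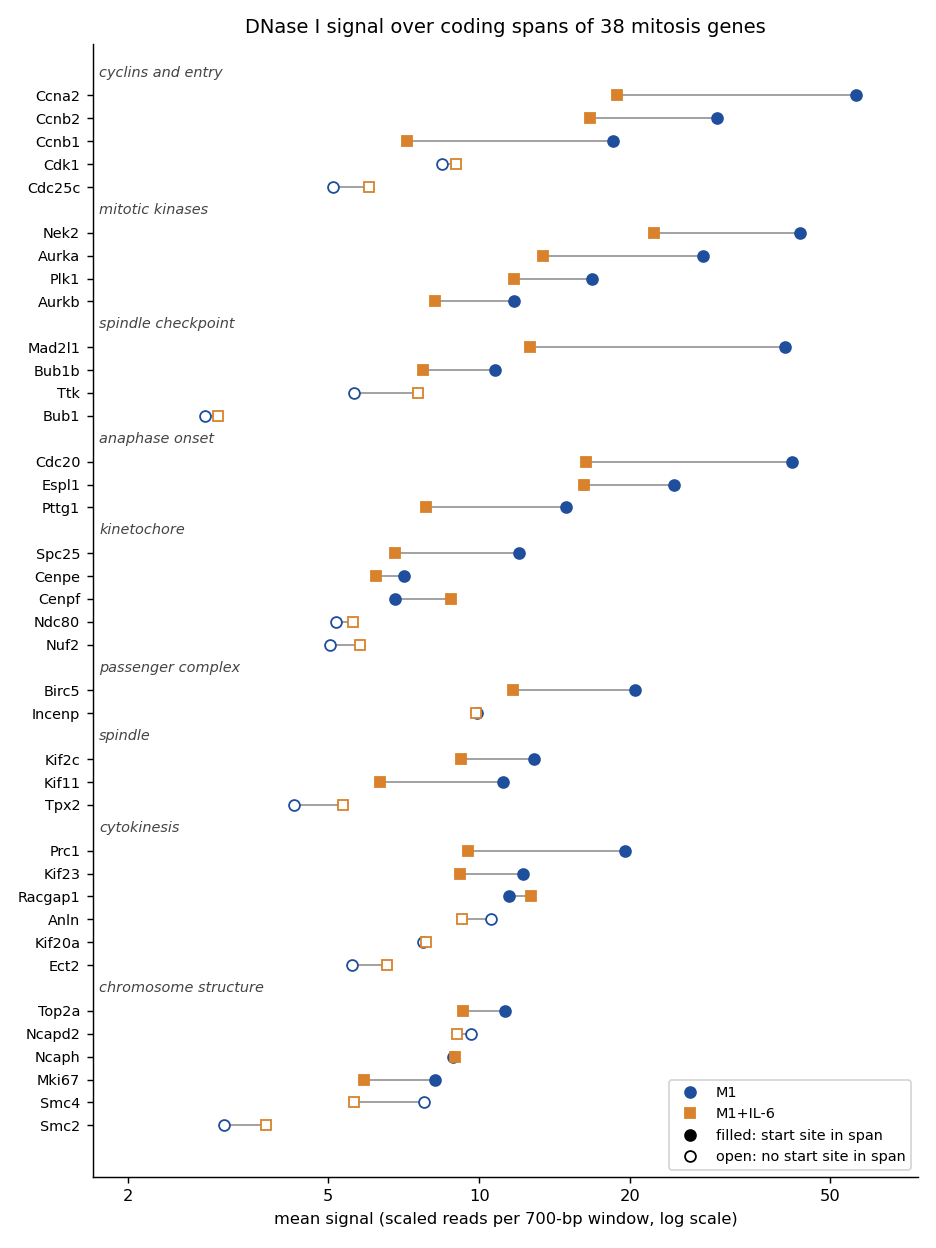
Mean signal of the 38 mitosis genes (horizontal axis, scaled reads per 700-bp window, log scale) in M1 (blue circles) and M1+IL-6 (orange squares), by role; filled symbols mark spans that hold an annotated start site. Values run from 2.84 (Bub1) to 56.4 (Ccna2) in M1 and from 3.02 to 22.3 in M1+IL-6, in the scaling of the table; under the scaling by strong short spans every orange square would lie to the right of its blue circle.

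Among the cyclins and the factors of entry into mitosis, the 3 cyclins were lower after IL-6 and Cdk1 and Cdc25c were close to level. Ccna2 (cyclin A2, partner of Cdk2 and Cdk1 from S phase to mitosis), with its coding span at chr3:36465156-36470745, held 508 reads in M1 and 163 in M1+IL-6 over 9 windows. Its ratio was 0.333 (0.277 to 0.398), and its M1 mean of 56.4 reads per window was the highest of the 38. Ccnb1 (cyclin B1, the main mitotic cyclin), at chr13:101549633-101556357, held 203 and 76 reads over 11 windows, a ratio of 0.389 (0.295 to 0.508). Compared with genes of similar length, its mean stood at percentile 68.8 in M1 and 29.4 in M1+IL-6, so that a span above the middle came to lie below it. Ccnb2 (cyclin B2) held 595 and 320 reads, a ratio of 0.558 (0.486 to 0.641). Cdk1, the kinase itself, held 152 reads in M1 and 156 in M1+IL-6, a ratio of 1.07 (0.847 to 1.34). Cdc25c, the phosphatase that activates Cdk1, held 138 and 157, a ratio of 1.18 (0.934 to 1.5). The intervals of Cdk1 and Cdc25c include 1, so a difference was not detectable at this depth, and neither span reaches an annotated start site.

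The 4 genes grouped here as kinases of the centrosome, spindle and passenger complex were lower, each with an interval below 1, against 40.9% of all genes with a start site in the span. The kinases Cdk1, Bub1 and Ttk, which stand in other groups, were not lower. Aurka (Aurora A, which acts at centrosomes and spindle poles), at chr2:172182296-172195955, held 585 reads in M1 and 271 in M1+IL-6, a ratio of 0.481 (0.415 to 0.556), but of 1.08 over the transcript with the fewest windows, which leaves out the start. Nek2, a kinase of centrosome separation, held 652 and 322 reads, and its ratio of 0.513 (0.447 to 0.587) fell just short of 2-fold with a log2 ratio of -0.96. After IL-6 the mean of Nek2, 22.3 reads per window, was the highest of the 38, while in M1 that of Ccna2 was. Plk1, the polo-like kinase that acts from mitotic entry to cytokinesis, held 268 and 181 reads, a ratio of 0.701 (0.577 to 0.850), and some of its windows also lie in the coding span of Ern2. Aurkb, the kinase of the chromosomal passenger complex, held 94 and 63 reads, a ratio of 0.696 (0.497 to 0.968).

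In the spindle checkpoint, 2 of 4 genes were lower, against 48.3% of all genes, and 2 higher, and they spanned the whole range of the list. Mad2l1 (Mad2, which binds and holds back Cdc20), at chr6:66485521-66489937, held 285 reads in M1 and 85 in M1+IL-6 over 7 windows, and its ratio of 0.310 (0.240 to 0.396) was the lowest of the 38. Ttk (Mps1, the kinase that recruits checkpoint proteins to kinetochores) held 298 and 385 reads over 53 windows, and its ratio of 1.34 (1.15 to 1.57) was the highest. Bub1, a checkpoint kinase, had the weakest span, with 125 and 128 reads over 44 windows, or 2.84 and 3.02 reads per window, and a ratio of 1.06 (0.824 to 1.37). Bub1b (BubR1) was lower, with a ratio of 0.718 (0.636 to 0.809).

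The 3 genes of anaphase onset, each with a start site in the span, were all lower with intervals below 1, against 40.9% of all genes with a start site in the span. Cdc20, the activator of the anaphase-promoting complex, at chr4:118105568-118109726, held 294 reads in M1 and 110 in M1+IL-6 over 7 windows, a ratio of 0.388 (0.309 to 0.485). Pttg1 (securin) had a ratio of 0.527, and Espl1 (separase, the protease that securin blocks) one of 0.660. Espl1 had the most reads of the 38 spans in M1, 1003.

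Kinetochore genes were mixed, with 2 of 5 lower, near the 48.3% of all genes, and 3 higher. Cenpf, a large protein of the outer kinetochore, held 422 reads in M1 and 525 in M1+IL-6, a ratio of 1.29 (1.13 to 1.47), and was the gene with a start site in its span whose ratio lay highest. Of the 4 subunits of the Ndc80 complex, which grips spindle fibres, 3 are members. Nuf2 held 197 and 217 reads, a ratio of 1.14 (0.939 to 1.39), Ndc80 had a ratio of 1.08 with an interval that includes 1, and Spc25 was lower, at 0.567 (0.449 to 0.713). Cenpe, a kinetochore motor, had a ratio of 0.878 (0.781 to 0.988). In the passenger complex, Birc5 (survivin) had a ratio of 0.570 (0.443 to 0.730) and Incenp, its scaffold, one of 0.997 (0.851 to 1.17).

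Of the spindle factors, Kif11 (Eg5, the motor that pushes spindle poles apart) had a ratio of 0.568 (0.501 to 0.643) and Kif2c, a kinesin that takes microtubules apart, one of 0.713 (0.612 to 0.830). Tpx2, which activates Aurora A on the spindle, held 167 reads in M1 and 201 in M1+IL-6, a ratio of 1.25 (1.01 to 1.54). The nearest annotated start of Tpx2 lay 27 windows away from its span. In cytokinesis, 3 of 6 genes were lower, near the 48.3% of all genes, and 3 higher. Prc1, which bundles the fibres of the central spindle, at chr7:87439467-87460071, held 585 and 274 reads, a ratio of 0.486 (0.420 to 0.562), and was the only gene of this group past 2-fold in the scaling of the table. Over its transcript with the fewest windows the ratio was 0.641 and not past 2-fold. Kif23 and Anln were lower with intervals below 1, Ect2 was higher with a ratio of 1.17 (1.03 to 1.34), and the intervals of Racgap1 and Kif20a included 1. Part of the span of Kif20a also lies in the coding span of Cdc23.

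Genes of chromosome structure showed smaller differences. Of 6 genes 4 were lower, against 48.3% of all genes, and 0 were past 2-fold, against 13.4% lower and 1.71% higher. The role groups also differed in signal and length. The median M1 mean was 22.3 in the group of 4 kinases and 8.52 here, and the median number of windows 15.5 and 42. Whether the role itself goes with the ratio was not tested. Mki67 (Ki-67, the proliferation marker that coats mitotic chromosomes) held 318 reads in M1 and 221 in M1+IL-6, a ratio of 0.721 (0.605 to 0.859). Top2a held 495 and 394 reads, a ratio of 0.826 (0.722 to 0.945). The condensin ATPases Smc4 and Smc2, which work as a pair, differed in direction. Smc4 had a ratio of 0.722 (0.606 to 0.860), while Smc2 held 208 reads in M1 and 243 in M1+IL-6, a ratio of 1.21 (1.00 to 1.47). The condensin subunits Ncapd2 and Ncaph had ratios of 0.940 and 1.01 with intervals that include 1.

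A coding span may or may not reach the promoter of its gene, so the genes were divided by whether the windows held an annotated start site of any protein-coding transcript of the gene. The annotation and not the signal made this division. The 24 genes with a start site in the span had a median M1 mean of 13.9 and a median of 9.24 after IL-6, and 21 of them were lower. The 14 genes without a start site had medians of 5.60 and 6.29, and 4 of them were lower. Of the 24, 6 (25%) were at least 2-fold lower, against 16.5% of all genes with a start in the span, 0 were at least 2-fold higher, against 1.54%, and 21 had an interval below 1, against 40.9%. Only 1 of the 24, Cenpf, had an interval above 1, against 28.0%. Of the 14, 0 were 2-fold lower, against 6.13%, and 0 were 2-fold higher, against 2.02%. In this class 2 had an interval below 1 (Smc4 and Anln), against 19.7%, and 4 an interval above 1 (Ttk, Tpx2, Ect2 and Smc2), against 31.6%. The median log2 ratio was -0.70 with a start site and 0.10 without, where the other genes of the table had -0.05 and 0.15, all in the scaling of the table. The 3 genes with a start site that were not lower were Cenpf, Racgap1 and Ncaph. RefSeq starts gave another class than GENCODE starts for 7 of the 31 genes with a promoter entry. Birc5, Cenpf, Kif23, Mad2l1, Racgap1 and Top2a hold a GENCODE start and not the RefSeq start, and Bub1 the reverse. By RefSeq starts the median was -0.82 for 17 genes and 0.10 for 14. With the start of the listed transcript alone, 17 genes held it, with a median of -0.82, and 21 did not, with a median of 0.09.

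**Figure D3:**
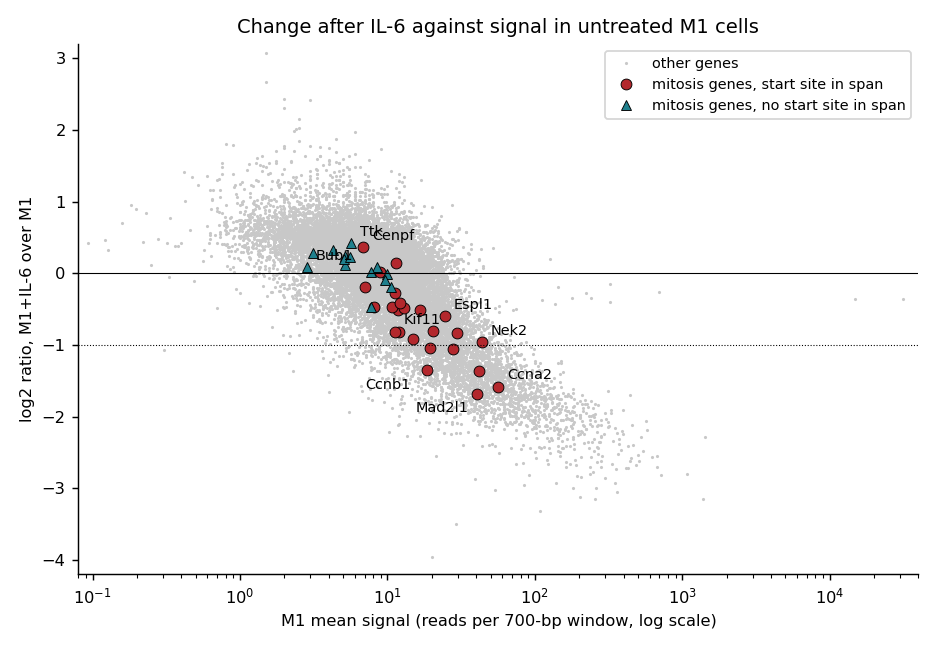
Log2 ratio of M1+IL-6 to M1 in the scaling of the table (vertical axis) against M1 mean signal (horizontal axis, reads per 700-bp window, log scale) for genes that passed 21 reads in at least 1 library. Red circles are the 24 mitosis genes with a start site in the span (median -0.70), teal triangles the 14 without (median 0.10), gray dots other genes, and the dotted line marks 2-fold lower; the scaling by strong short spans would raise every point by 1.73.

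Where transcripts of a gene shared window boundaries, the difference between their spans gave the reads of the stretch with a start. The start used was the 5′-most of the annotated starts inside the span. For 9 mitosis genes this stretch was at most 50% of the windows. In Cenpf, Kif2c, Pttg1 and Racgap1 among them, the start of the listed transcript itself lay outside the span. In Nek2 the start lay in 1 window, chr1:193645201-193645900, which also holds most of the promoter printed above. This window held 369 of the 652 reads of the span in M1 and 97 of 322 in M1+IL-6, a ratio of 0.273 (0.216 to 0.342), while the other 14 windows held 283 and 225, a ratio of 0.825 (0.690 to 0.987). For Spc25 the start window, chr2:69043801-69044500, held 126 reads in M1 and 27 in M1+IL-6, a ratio of 0.222 (0.141 to 0.339). The other 17 windows of Spc25 held 90 and 91 reads, a ratio of 1.05 (0.776 to 1.42). Among them the window next to the start held 24 and 12 reads, the following 12 held 51 and 64, and the last 4 held 15 in each library, all with intervals that include 1. The difference of the whole span thus lay in the start window. That window also holds the CHR core and CCAAT boxes of Spc25, and whether these go with the ratio was not tested.

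Aurka and Ccna2 had the same form. In Aurka the 2 windows at chr2:172195101-172196500 held 415 reads in M1 and 94 in M1+IL-6, a ratio of 0.235 (0.186 to 0.295), and the other 19 held 170 and 177. In Ccna2 the 4 windows at chr3:36468601-36471400 held 463 and 113 reads, a ratio of 0.253 (0.204 to 0.312), and the other 5 held 45 and 50. The start stretch of Ccna2 thus took 91.1% of the M1 reads of the span and 69.3% after IL-6. Pttg1 had 100 and 36 reads in its 4 start windows and 34 and 32 in the rest. Ncaph, level as a whole, was lower in its 8 start windows, with 144 and 76 reads and a ratio of 0.548 (0.409 to 0.728), and higher in the other 35, with 238 and 295 reads and a ratio of 1.29 (1.08 to 1.53).

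The remaining 3 differed from this form. Racgap1 had 74 and 61 reads in its start stretch, a ratio of 0.856 with an interval that includes 1. Cenpf had 68 and 101 reads there, a ratio of 1.54 (1.12 to 2.13), at a start inside the gene and not at its 5′ end. Kif2c had 46 and 47 reads in the 6 windows of its annotated internal start, while the 5 windows at the 5′ end of its span, at chr4:116851701-116855200, held 195 and 54 reads, a ratio of 0.287 (0.209 to 0.390), and held no annotated start. Of the 9 genes, 7 had a lower ratio in the start stretch than in the rest, against 73.0% of all genes with such a stretch. The stretch was at least 2-fold lower in 5 genes, against 36.7%, and the rest in 0, against 4.38%. The median log2 ratio was -1.41 in the start stretches and 0.11 in the rest, where the 3074 other genes had -0.48 and 0.10. The start stretch held a median of 56.6% of the M1 reads and 22.9% of the M1+IL-6 reads, against 36.0% and 28.5% in the other genes. These shares and the differences between the parts of a span do not depend on the scaling between libraries. The median share fell in the other genes as well. Whether the 2 libraries differ in signal over background, which would also change these shares and differences, was not tested.

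**Figure D4:**
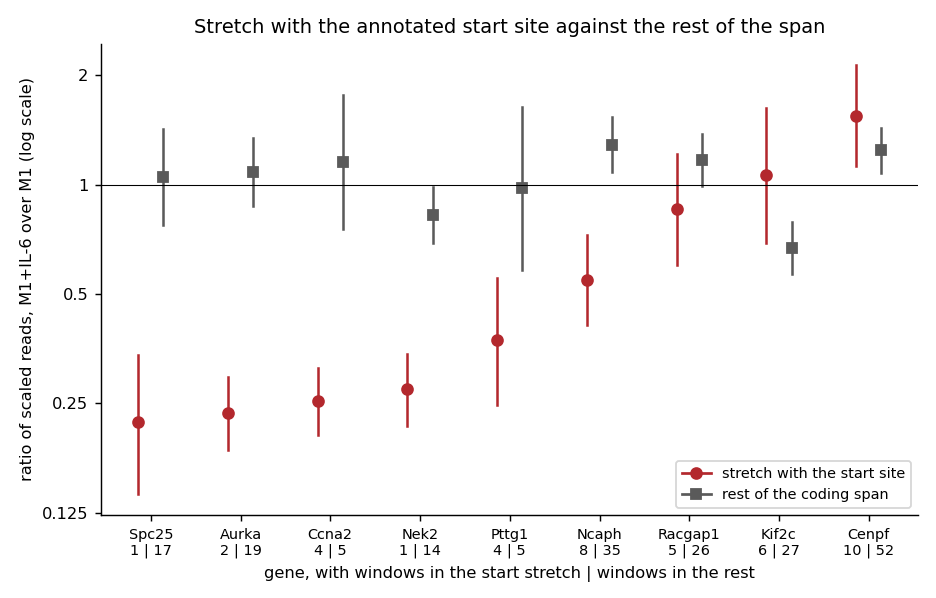
Ratio of scaled reads, M1+IL-6 over M1 (vertical axis, log scale), in the stretch that holds the 5′-most of the annotated starts inside the span (red circles) and in the rest of the coding span (gray squares) for 9 mitosis genes. Bars are exact 95% intervals and the numbers under each gene are the windows of both parts. The start stretches of Spc25, Aurka, Ccna2 and Nek2 lie at 0.222 to 0.273, and the rest of their spans at 0.825 to 1.15.

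Another 9 genes had several stretches, none of which met that condition, and for these the first stretch from the 5′ end was set beside the rest of the span. The ratio of the first stretch was lower in 8 of the 9, but its interval lay wholly below that of the rest only in Birc5 and Prc1. The share over all genes was not computed for first stretches. For start stretches it was 73.0%, so a first stretch below the rest is not particular to these genes. The first 5 windows of Birc5 held 140 reads in M1 and 47 in M1+IL-6, a ratio of 0.349 (0.245 to 0.488), and the other 4 held 44 and 54. The first 17 windows of Prc1 held 475 and 188, a ratio of 0.411 (0.345 to 0.488), and the other 13 held 110 and 86. In Bub1b, Kif23, Top2a, Cdk1, Ect2 and Smc4 the first stretch was lower with intervals that overlap, at 0.822 against 0.848 in Top2a for example. Smc2 was the exception, at 1.29 against 1.16. Smc4 had 61 reads in M1 and 32 in M1+IL-6 in its first window, although its nearest annotated start lay 2 windows outside the span.

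The mean and SD over the windows bound the strongest window of each span. By the lower bound the strongest window in M1 held more than 21 reads in 22 of the 38 genes, against 35.0% of all genes. In M1+IL-6 it held more than 21 scaled reads in 9, against 17.6%. The upper bound was at most 21 in only 3 genes in M1 and 2 in M1+IL-6, so for the rest the bounds do not decide. The shares of all genes were not matched on number of windows. These 9 were among the 22. With a start site in the span the counts by the lower bound were 20 and 9 of 24, against 40.2% and 19.9%. Without a start site they were 2 and 0 of 14, against 24.1% and 12.8%, and the upper bound was at most 21 in 3 and 1 of these 14. The 2 without were Anln, with at least 28 reads, and Smc4, with at least 23. By the lower bound a window above 100 scaled reads was present in 10 genes in M1, against 10.6% of all genes, and in 0 after IL-6, against 0.416%, although the start window of Nek2, known from its stretch, held 97 reads or 101 scaled reads there. In Ccna2 the strongest window held 302 to 389 reads in M1 and 44.5 to 81.0 after IL-6. In Prc1 it held 237 to 369 and then 30.7 to 85.9, and in Mad2l1 189 to 230 and then 33.7 to 52.6. In these 3 genes the ranges of the libraries did not overlap.

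Because the ratio went with the strength of the signal in all genes, each gene was set beside the other genes whose M1 mean was within 10% and whose number of windows was within 25% of its own, which left 60 to 337 genes for each. The M1 value enters both this match and the ratio. The 38 genes lay a median of 0.11 lower on the log2 scale than their comparison genes (-0.11), with 27 below and 11 above the comparison median, 12 below the 25th percentile and 2 above the 75th, and these differences do not depend on the scaling between libraries. For the 24 genes with a start site the median difference was -0.19, with 17 below and 7 above, and for the 14 without it was -0.04, with 10 below and 4 above. Matched on the mean of both libraries instead, the medians were -0.35 and 0.02. Over all 38 genes the other ways of matching gave medians from -0.06, with the SD over windows matched as well (37 genes), to -0.19, with the mean of both libraries.

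Genes with like ratios differed in this comparison. Ccnb1 had a log2 ratio of -1.36, where its 144 comparison genes had a median of -0.47, and it stood at percentile 4.86 among them. Kif11 stood at percentile 4.67 of 257 genes, with a difference of -0.67. Pttg1, Spc25 and Aurkb lay 0.85, 0.68 and 0.63 below their comparison medians (differences -0.85, -0.68 and -0.63). Ccna2 and Cdc20, at least 2-fold lower, were like other genes of the same signal and length, with differences of -0.06 and 0.02. So was Espl1, with a difference of 0.03. Mad2l1 differed by -0.37, at percentile 18.3 of 60 genes. Above their comparison genes lay Nek2 (0.36), Racgap1 (0.27), Cenpf (0.24), Ccnb2 (0.22) and Ttk (0.20), so that the ratio of Nek2, 0.513, was higher than that of most genes as open in M1. Mki67, with a difference of -0.51, lay among the lower genes although its own ratio was moderate. Among genes of similar length, Kif11 moved from percentile 73.6 in M1 to 36.5 in M1+IL-6 and Prc1 from 84.0 to 56.7, while Espl1 stayed at 94.5 and 91.6.

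**Figure D5:**
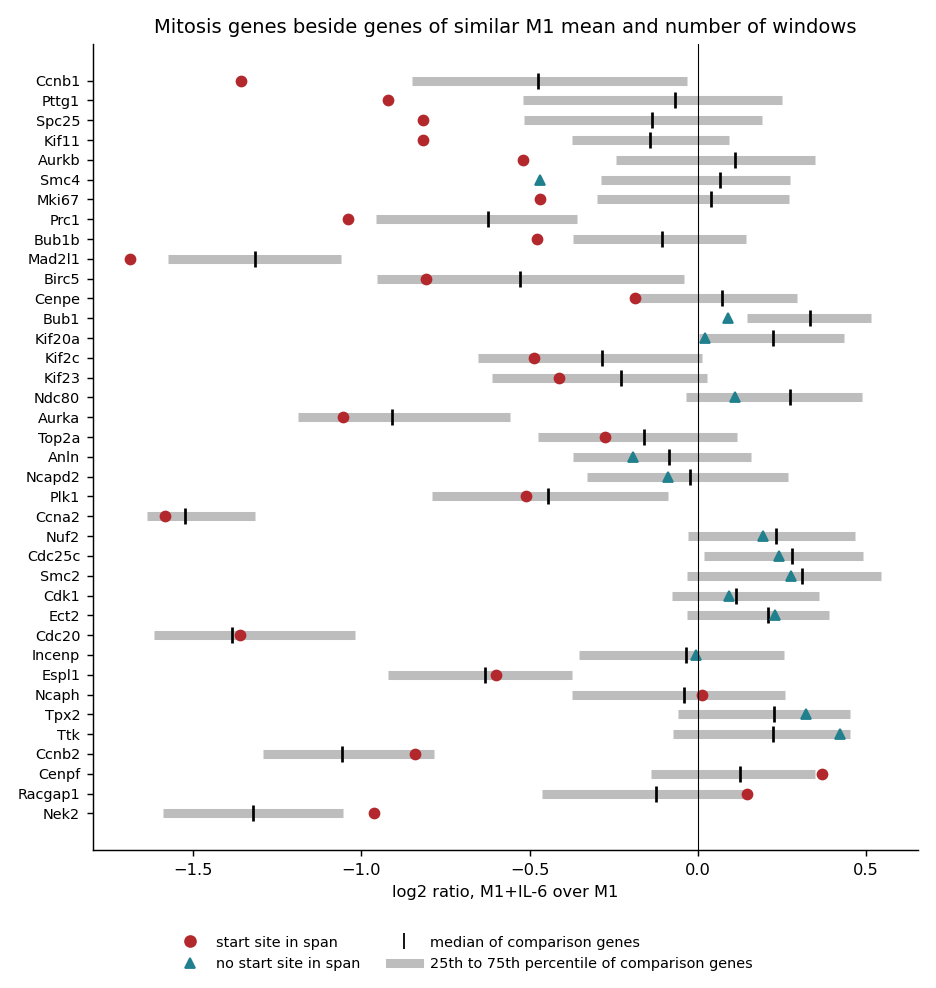
Log2 ratio of M1+IL-6 to M1 (horizontal axis, in the scaling of the table) of each mitosis gene beside the genes of similar M1 mean and number of windows, sorted by the difference. Circles are genes with a start site in the span, triangles genes without, black ticks the median and gray bars the 25th to 75th percentile of the comparison genes; Ccnb1 lies 0.88 below its comparison median (difference -0.88) and Nek2 0.36 above, and the scaling by strong short spans would shift all marks by 1.73 together.

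A list of other mitosis genes and a list of DNA replication genes were measured in the same way. Of 132 symbols of other mitosis genes 123 were found. Of the 122 with more than 21 reads, 81 were lower (66.4%, against 48.3% of all genes) and 41 higher in the scaling of the table. At least 2-fold lower were 25 (20.5%, against 13.4% of all genes), and 0 were 2-fold higher, against 1.71%. Their median log2 ratio was -0.28, with -0.58 for the 81 genes with a start site in the span and 0.03 for the 41 without. Among the entry kinases, phosphatases and cyclins of this list, 9 of 17 (52.9%) were at least 2-fold lower, with a median of -1.01. Among its kinesins 1 of 10 was (10.0%, against 13.4% of all genes), with a median of 0.11. The same groups differed in median M1 mean, 17.6 against 6.55, and in median number of windows, 15 against 75.5. Genes of similar signal and length were not matched to this list. The lowest ratio was that of Oip5, which helps to load the centromeric histone, with 402 reads in M1 and 99 in M1+IL-6, a ratio of 0.256 (0.203 to 0.319). The highest was that of Plk2, a polo-like kinase of stress and centriole control, with 32 and 60 reads, a ratio of 1.95 (1.25 to 3.09). Of the 50 DNA replication genes found among 57 symbols, 44 were lower (88.0%, against 48.3% of all genes). At least 2-fold lower were 16 (32.0%, against 13.4%), and the median of the 50 was -0.74. Under the scaling by strong short spans the medians of these lists also rise by 1.73.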

How the data were processed

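The authors trimmed the reads, aligned them to NCBIM37 (mm9) with BWA and made the table with Seqmonk; versions are not given in the sources used here. The deposited signal values are, for each of 55432 transcripts, the mean and SD over the 700-bp windows that the coding span touches, in 1 M1 and 1 M1+IL-6 library. A further column held no values. A read was worth 1.0 in M1 and 1.03816 in M1+IL-6, and 100% of the means gave whole reads within 0.05, so reads were recovered; the study names no such factor. How Seqmonk assigned a read to a window sets where signal at a start site falls. Windows shared between transcripts gave the stretches.

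The mitosis genes and the other lists were chosen with earlier results of these data known. Before taking log2 ratios, 0.5 reads were added on both sides. A gene entered the counts with more than 21 reads in either library and was called at 2-fold. With 1 library per group no test could be run and p-values are left out; intervals are exact Clopper-Pearson. A count of 0 would allow up to 3 reads. Start sites came from GENCODE M1, matched for 22219 genes, and promoters from RefSeq. Full values were given for genes past 2-fold, the 5 with the highest and lowest M1 mean and ratio, and 7 fixed genes (Ccnb1, Cdk1, Plk1, Aurka, Aurkb, Mki67 and Top2a). Stretches, and the genes named from them, from the strongest windows and from the comparison genes, were picked after their values were seen. Alternatives covered the scaling, reads added, threshold, transcript, fold and matching. Python 3.11.15, numpy 2.4.6, pandas 2.3.3, scipy 1.17.1 and matplotlib 3.10.9 were used.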

Additional observations from a re-analysis of the deposited data

How the results depend on the processing

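Of 44 alternative values of 7 list results, 39 stayed within their limits and 5 moved. The limit was 1.5 times for a count of genes, so that 15 (above 50 reads) and 16 (fewest windows) genes in place of 22 counted as within it, and an order-statistic interval for a median. The scaling between the libraries was the choice that moved most. A scaling by the median ratio of 420 spans of at most 3 windows with more than 21 reads per window in both libraries (factor 3.45) gave 0 genes 2-fold lower in place of 6, 26 genes 2-fold higher in place of 0, and moved the median log2 ratio from -0.44 to 1.29. It put all 25 genes that were lower above a ratio of 1. For the 6 called 2-fold lower the ratio became 1.60 for Aurka, 1.11 for Ccna2, 1.29 for Cdc20, 1.03 for Mad2l1, 1.61 for Prc1 and 1.29 for Ccnb1. No scaling, the total and the median over all genes turned 0 of these 6, turned 1 or 2 genes close to 1, and left 24 to 27 of the 38 ratios below 1. With the transcript of fewest windows 4 genes changed side. Aurka had a ratio of 1.08, Spc25 1.30 and Kif2c 1.06, where that transcript leaves out the first windows by construction, and Racgap1 had 0.856. Without their first windows Pttg1 had 0.964 and Nek2 0.825, Birc5 had 0.349 over its first 5 windows alone, and the median log2 ratio was -0.19 over 37 genes. At 1.5-fold in place of 2-fold 13 genes were lower. The upper bound of the strongest window in place of the lower raised the count above 21 reads in M1 from 22 genes to 35. Of 190 alternative ratios of single genes, 139 stayed within the interval of the main ratio. Of the others, 7 are the changes of side of 2-fold genes given above, and 44 are other moves, among them the changes of side of genes not called. The alternatives for start sites of the listed transcript, comparison genes of the same start-site class (median difference -0.09) and the 35 genes without overlapping spans were chosen after seeing the data. A planned match on the M1 mean without the number of windows gave a median difference of -0.18. No paired analysis was possible because each group is 1 library. The fewest reads on a span were 85 in M1 (Kif20a) and 63 in M1+IL-6 (Aurkb), and there small differences were not detectable at this depth.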
